A study of Homo sapiens with 2 samples.

Results

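The genes described here are HK2, GPI, PFKL, PFKP, ALDOA, GAPDH, PGK1, ENO1, PKM and LDHA, which encode enzymes of glycolysis and of lactate formation. They were chosen by name, and a peak was assigned to one of them when it overlapped any annotated exon of the gene (GENCODE 44, hg38). These 10 genes, of 20046 protein-coding genes, held 28 of the 21142 peaks of replicate 1 and 27 of the 20799 of replicate 2. The peaks came from LACE-seq of IGF2BP3, an RNA-binding protein and m6A reader. In LACE-seq, RNA is crosslinked to protein by UV light and immunoprecipitated, and the ends of the resulting cDNA are amplified linearly and sequenced. The samples were 2 replicates of 1 group, and both were of OE-19, a cell line of esophagogastric junction adenocarcinoma origin that was grown in RPMI1640 with serum. The labels name no treatment. No input, IgG or knockdown library was analysed here, so each value is a description of these 2 lists, and no test was made.

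Glycolysis converts glucose to pyruvate in the cytosol. A hexokinase traps glucose as glucose 6-phosphate, GPI isomerises it, and the phosphofructokinases PFKL and PFKP add the committing phosphate. ALDOA splits the sugar, GAPDH and PGK1 carry out the first oxidation and the first ATP formation, ENO1 makes phosphoenolpyruvate, and PKM makes pyruvate and ATP. LDHA reduces pyruvate to lactate. Many tumors run this pathway at a high rate even with oxygen present, and its enzymes are encoded by abundant mRNAs. IGF2BP proteins are best known for binding mRNAs and stabilizing them.

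Peaks in both replicates were found at the same place on 7 of the 10 genes (GPI, ALDOA, GAPDH, PGK1, ENO1, PKM and LDHA), and not on HK2, PFKL or PFKP. A pair of peaks is defined here as a peak of each replicate that share at least 1 bp. The 7 genes held 21 pairs, of which PKM had 8, GPI had 4 and LDHA had 3. PGK1 and ENO1 had 2 each, and ALDOA and GAPDH had 1 each. Over all protein-coding genes, 37.3% had an exonic peak in replicate 1, 39.0% in replicate 2 and 31.6% in both. A pair was present on 28.0% of them. mRNA levels were not measured in these libraries, so the part of transcript abundance in this count was not tested.

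The sequences under these pairs are shown for GPI, ALDOA, GAPDH, ENO1, PKM and LDHA, because they hold the bases that both lists place under a peak. All are coding sequence of the hg38 genome, written 5′ to 3′ on the gene strand. For GPI, ALDOA, GAPDH and PKM the stretch surrounds the replicate 1 summit and was limited to 1 coding exon. For ENO1 and LDHA it is the coding sequence of the last exon that both peaks share, cut to at most 101 nt, a choice made after the data were seen. The LDHA stretch holds neither summit, as these lie downstream of it (chr11:18407413 in replicate 1 and chr11:18407309 in replicate 2). The ENO1 stretch holds the summit of replicate 1 only. Capitals mark GGAC, the core of the m6A consensus, or one of CATA, CATC and CATT, which are forms of the CA-rich elements that IGF2BP proteins are known to bind. The stretches lie at chr19:34377503-34377580 (GPI, exon 5, plus strand), chr16:30070117-30070173 (ALDOA, exon 10, plus strand) and chr12:6537643-6537743 (GAPDH, exon 8, plus strand). ENO1 is shown at chr1:8861363-8861429 (exon 12, minus strand), PKM at chr15:72208830-72208891 (exon 6, minus strand) and LDHA at chr11:18407147-18407247 (exon 8, plus strand).
GPI: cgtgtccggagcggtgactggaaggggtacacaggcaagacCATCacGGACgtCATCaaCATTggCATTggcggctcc
ALDOA: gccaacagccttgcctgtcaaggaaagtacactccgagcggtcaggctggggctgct
GAPDH: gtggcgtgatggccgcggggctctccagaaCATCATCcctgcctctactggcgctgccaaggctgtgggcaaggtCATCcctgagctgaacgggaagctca
ENO1: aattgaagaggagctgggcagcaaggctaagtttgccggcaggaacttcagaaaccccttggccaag
PKM: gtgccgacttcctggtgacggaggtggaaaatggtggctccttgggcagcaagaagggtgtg
LDHA: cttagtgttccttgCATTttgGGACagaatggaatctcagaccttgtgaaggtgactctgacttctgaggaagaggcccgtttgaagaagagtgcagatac
GGAC occurs in the stretches of GPI and LDHA, and the CAT elements in those of GPI, GAPDH and LDHA. The other 3 stretches hold none of these elements, which says only that they are not in the stretches shown. The full windows of 101 nt around the summits held a CAT element at PKM exon 6 in both replicates. At ENO1 exon 12 one was present in replicate 1 only, and at the ALDOA pair in neither replicate.

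Each of the 7 genes with a pair had one that reached the stop codon of the canonical transcript, here taken as the last coding base before it. Among the 5606 protein-coding genes with a pair, 32.1% had one that did so. The canonical transcripts of the 7 genes measured 1285 to 4812 nt, and 36.5% of the 3245 genes in this length range reached the stop codon. The share was 21.6% for genes with 1 pair and 49.3% for genes with 4 or more. The last exon was reached in all 7 genes against 68.4% of the genes with a pair. The first exon was reached in GPI, PGK1, ENO1, PKM and LDHA, against 31.9%, and the start codon in GPI and PKM, against 23.6%. Without peaks that also touch exons of another gene, 4 genes kept a pair over the stop codon (PGK1, ENO1, PKM and LDHA). With peaks whose summit sequence of 31 nt occurs once in the genome, 5 genes kept one (GPI, ALDOA, GAPDH, PKM and LDHA). When summits had to lie within 50 bp of each other, only ALDOA and GAPDH did.

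**Figure D1:**
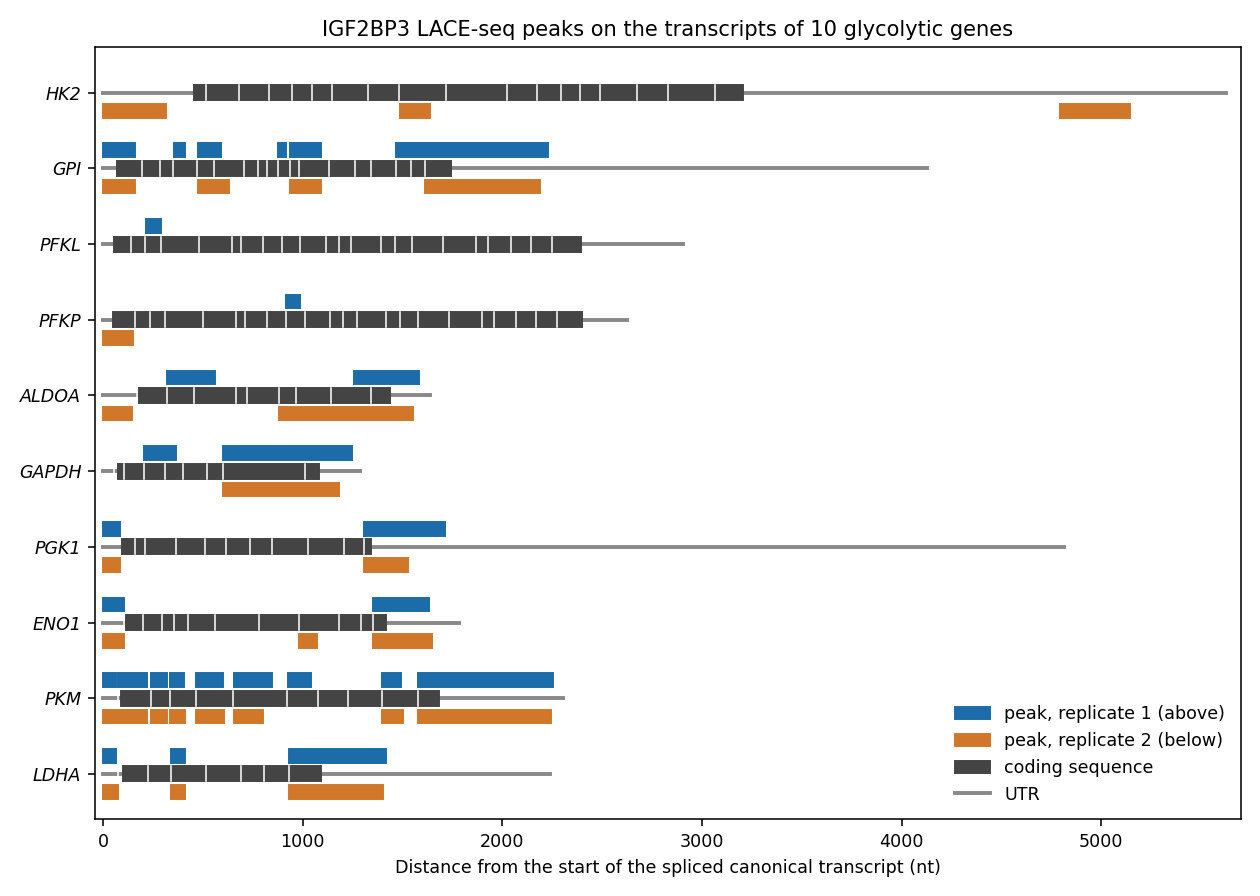
Peaks on the spliced canonical transcripts of the 10 genes, with the distance from the transcript start in nt on the horizontal axis. Dark boxes are coding exons, grey lines are UTRs, and bars show the exonic parts of peaks of replicate 1 (above) and replicate 2 (below); in GPI, ALDOA, GAPDH, PGK1, ENO1, PKM and LDHA, bars of both replicates lie over the end of the coding sequence.

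The strength of a peak is given as the fold enrichment from the authors' peak caller. Every deposited value equals the reads at the summit plus 1, divided by the local background in reads plus 1. The added 1 lowers the ratio most where reads and background are few. The median fold enrichment of the peaks on the 10 genes was 7.72 in replicate 1 (n = 28 peaks) and 8.41 in replicate 2 (n = 27 peaks). Over all exonic peaks of protein-coding genes the medians were 6.82 and 7.11. The glycolytic peaks were above that median in 18 of 28 cases for replicate 1 and 19 of 27 for replicate 2. The difference was larger in the −log10 q-value, which also grows with read number, with medians of 21.4 and 28.0 against 12.3 and 12.9. It exceeded the median of all exonic peaks in 23 of 28 and 23 of 27 peaks. As plain reads over background, with no 1 added, the medians of the glycolytic peaks were 9.61 and 12.4, against 10.5 and 11.7 over all exonic peaks. On this scale the glycolytic median was thus the lower in replicate 1 and the higher in replicate 2.

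**Figure D2:**
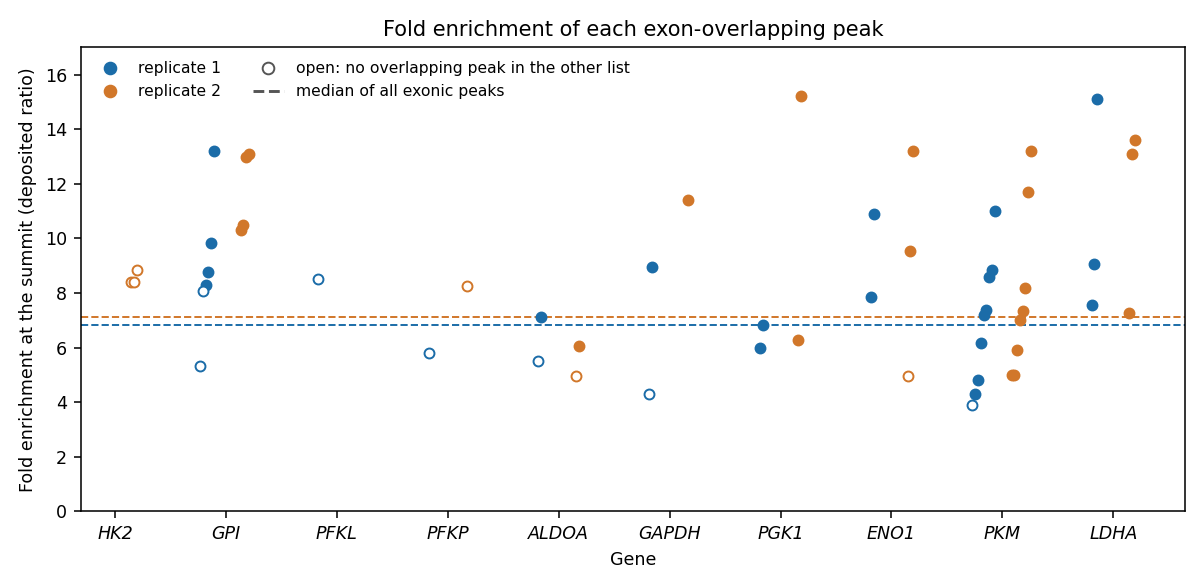
Fold enrichment at the summit of each exon-overlapping peak, by gene and replicate. Filled points overlap a peak of the other replicate and open points do not, and dashed lines mark the medians of all exonic peaks (6.82 and 7.11); the peaks of HK2, PFKL and PFKP are all open.

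The 3 genes without a pair act at the phosphorylating steps before the split of the sugar. HK2, the inducible hexokinase of many tumors, had none in replicate 1 and 3 in replicate 2. These 3 peaks had fold enrichments of 8.39 over the 5′ UTR, 8.41 at exon 9 and 8.86 in the 3′ UTR, with 17, 23 and 36 reads at their summits. All 3 were above the replicate 2 median of 7.11 for exonic peaks. PFKL, the liver-type phosphofructokinase, had 1 peak in replicate 1 at exon 3, with a fold enrichment of 8.52, and none in replicate 2. PFKP, the platelet-type enzyme, had 1 peak in each list, on different exons. The replicate 1 peak lay at exon 9 (5.81) and the replicate 2 peak over exon 1 (8.26). A peak list gives no value where no peak was called, so the signal of the other replicate at these sites is unknown.

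GPI, the isomerase, had 6 peaks in replicate 1 and 4 in replicate 2, and all 4 of the latter formed pairs. The pair over coding exons 5 and 6 had nearly equal fold enrichments of 13.2 in replicate 1 and 13.1 in replicate 2 (mean 13.1 ± 0.0886, SD, n = 2), with summits 5 bp apart. It spans chr19:34377253-34377769 in replicate 1 and holds the sequence shown above. The pair over exon 1, which includes the start codon, had values of 9.83 and 13.0. The pair over exons 11 and 12 had values of 8.78 and 10.5. The last-exon pair over the stop codon had fold enrichments of 8.30 and 10.3, with 62 and 77 reads at the summits. By fold enrichment, GPI was thus above the median of all exonic peaks at each of its pairs. As plain reads over background, its last-exon pair had 9.40 and 11.7, against medians of 10.5 and 11.7. The other GPI pairs were above the medians on that scale too. The 2 peaks of replicate 1 without a partner had lower values than its 4 paired peaks, 8.06 at exon 4 and 5.32 at exon 10. The last-exon peaks also overlapped exons of ENSG00000266953, a protein-coding gene annotated on the same strand, and reads of the 2 genes cannot be told apart.

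ALDOA, the main aldolase of most tissues, had 2 peaks in each replicate but 1 pair. This pair covered the stop codon, with fold enrichments of 7.12 in replicate 1 and 6.06 in replicate 2 (mean 6.59 ± 0.751, SD, n = 2). Its replicate 1 peak was 414 bp wide, over exons 9 and 10, and the replicate 2 peak was 1049 bp wide, over exons 7 to 10, although the summits were 18 bp apart. The shared 381 bp made up 36.3% of the wider peak, and ALDOA was the gene lost when pairs had to share 50% of both peaks. The unpaired peaks lay over exons 3 and 4 in replicate 1 (5.51) and over exon 1 in replicate 2 (4.96). Both peaks of the pair and the replicate 1 peak at exons 3 and 4 also overlapped exons of ENSG00000285043, annotated on the same strand.

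GAPDH, the dehydrogenase often used as a reference mRNA, had 1 pair that covered 45.4% of its transcript. The peaks spanned chr12:6537434-6538335 in replicate 1 and chr12:6537422-6538270 in replicate 2, over exons 8 and 9. Their fold enrichments were 8.96 and 11.4 (mean 10.2 ± 1.73, SD, n = 2), with 92 and 109 reads at summits 8 bp apart. The −log10 q-values of 53.0 and 73.7 were the highest of the 10 genes after PKM in both replicates. A further peak over exons 4 and 5 was called in replicate 1 only, with a fold enrichment of 4.29. The paired peaks also overlapped an exon of the antisense lncRNA ENSG00000269968, and the lists carry no strand. Of their 31-nt words, 61.7% and 62.4% occur once in the genome, since GAPDH has many processed pseudogenes.

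PGK1, the first ATP-forming enzyme of the pathway, had the pair with the widest difference in fold enrichment between replicates. At exon 1, the fold enrichment was 6.81 in replicate 1 and 15.2 in replicate 2 (mean 11.0 ± 5.91, SD, n = 2), a ratio of 2.23. The summits held 9 and 32 reads, and 9 was the lowest pileup among the peaks of the 10 genes. Over backgrounds of 0.469 and 1.18 reads, the plain ratios with no 1 added were 19.2 and 27.2, which differed by 1.42 times, as did those of PKM exon 1 (11.0 and 15.6). The pair over the stop codon in exon 11 had closer values of 5.98 and 6.26, with 33 and 20 reads. PGK1 had the lowest coverage of the 7 genes with a pair, 6.34% of a transcript with a long 3′ UTR. At the replicate 1 summit in exon 11, the 31-nt sequence occurs at 2 places in the genome, and 44.9% of the 31-nt words of the replicate 2 peak occur once.

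ENO1, the enolase of most tissues, had its pairs at both ends of the mRNA. The first-exon pair, which did not reach the start codon, had fold enrichments of 10.9 and 13.2 (mean 12.1 ± 1.59, SD, n = 2). The last-exon pair, over the stop codon, had values of 7.86 and 9.55 (mean 8.70 ± 1.19, SD, n = 2). Replicate 2 was the higher in both pairs. The only other ENO1 peak was at exon 9 in replicate 2, with a value of 4.94. The first-exon peaks also overlapped an exon of the antisense lncRNA ENO1-AS1, and the replicate 1 summit in the last exon has a 31-nt sequence that occurs at 2 places in the genome.

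PKM, the pyruvate kinase whose mRNA is spliced to a PKM1 or a PKM2 form, had the most peaks of the 10 genes. It had 9 in replicate 1 and 8 in replicate 2, against a median of 2 over protein-coding genes with a peak. At least as many were found on 182 genes in replicate 1 and 244 in replicate 2. All 8 peaks of replicate 2 formed pairs, and the bases shared by both lists made up 61.0% of the canonical transcript, which is the PKM2 form. The pairs lay on exons 1 to 6, 10 and 11, and the one unpaired peak, on exon 7, had a fold enrichment of 3.89, the lowest of the replicate 1 peaks of the 10 genes.

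The PKM pairs differed in strength along the transcript. The exon 2 pair, which covers the start codon, had the largest fold enrichments, 11.0 and 13.2 (mean 12.1 ± 1.54, SD, n = 2). The exon 11 pair over the stop codon had fold enrichments of 7.36 and 8.20 (mean 7.78 ± 0.594, SD, n = 2), with 154 and 146 reads at the summits and −log10 q-values of 75.2 and 77.7. These were the most reads and the highest −log10 q-values at any peak of the 10 genes. At exon 6, the fold enrichments were 7.18 and 7.35 with summits 1 bp apart. The exon 1 pair had values of 8.58 and 11.7, and the exon 3 pair a mean of 7.93 ± 1.31 (SD, n = 2), with replicate 1 the higher. The pairs at exons 4, 5 and 10 were weaker, between 4.31 and 6.15 in both replicates. No peak of either list touched the mutually exclusive exons of 167 nt that define PKM1 (chr15:72203022-72203188) and PKM2 (chr15:72202454-72202620), so the lists do not separate the forms.

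Fold enrichment and read number ranked PKM differently from the other genes. Its summits had a median background of 13.6 reads in replicate 1 and 9.10 in replicate 2, against 2.29 and 1.97 over all exonic peaks. Its median pileup was 74 and 57.5 reads against 24 and 23, while its median fold enrichment of 7.18 in both replicates was near the medians of all exonic peaks. As plain reads over background, only its exon 1 and exon 2 pairs were above the medians of all exonic peaks (10.5 and 11.7). The other PKM pairs were below them, at 4.47 to 10.4 in replicate 1 and 5.43 to 8.62 in replicate 2. Without PKM, the median fold enrichment of the remaining peaks was 8.06 in replicate 1 and 9.55 in replicate 2 (n = 19 peaks in each). Their plain medians were 11.2 and 12.6. The median pileups without PKM were 32 and 40 reads.

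**Figure D3:**
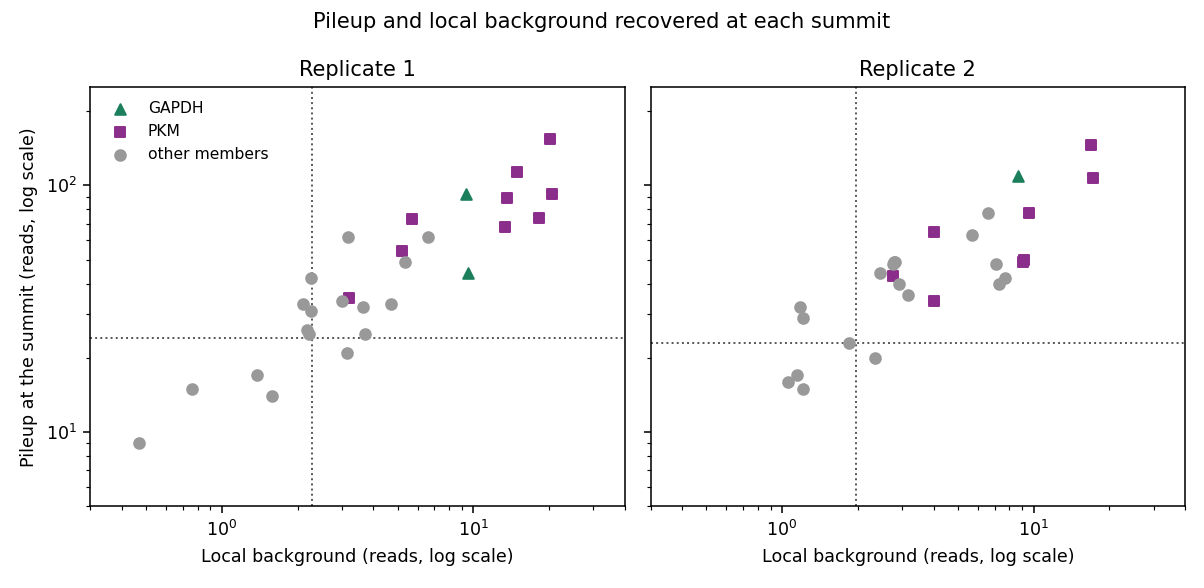
Reads at the summit against the local background in reads, both on log scales, for each peak of the 10 genes in replicate 1 (left) and replicate 2 (right). Dotted lines are the medians over all exonic peaks (24 and 23 reads at the summit, 2.29 and 1.97 in the background); all PKM squares lie above both lines.

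LDHA, which forms lactate, had 3 peaks in each replicate and all formed pairs. The pair over the stop codon in exon 8 had fold enrichments of 15.1 in replicate 1 and 13.1 in replicate 2 (mean 14.1 ± 1.45, SD, n = 2), the highest mean fold enrichment of the 21 pairs. As plain reads over background its mean was 18.5, below PGK1 exon 1 (23.2) and LDHA exon 1 (21.9). It spanned chr11:18406954-18407602 and chr11:18406949-18407584, with 62 and 49 reads at the summits. The exon 1 pair had values of 9.08 and 13.6, with 15 and 29 reads at summits just upstream of the annotated gene. The exon 4 pair had values of 7.57 and 7.25. Replicate 1 was thus higher in the pair over the stop codon and replicate 2 in the pair over the 5′ UTR. LDHA also has processed pseudogenes, and 65.8% and 66.7% of the 31-nt words of the exon 8 peaks occur once in the genome.

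The overlap between replicates covered 75.0% of the replicate 1 peaks (21 of 28, Wilson 95% interval 56.6–87.3%) and 77.8% of the replicate 2 peaks (21 of 27, 59.2–89.4%). Over all exonic peaks it was 61.9% and 61.5%, within both intervals. These intervals cover counting error only. Across the 21 pairs, the fold enrichments of the replicates had a Spearman rho of 0.738, against 0.664 over 11251 exonic pairs. Pairs of a gene share its transcript and library, so this is a description across pairs. The median distance between paired summits was 69 bp, against 41 bp over all pairs, and 8 of 21 pairs had summits within 50 bp (38.1% against 54.5%). The shared bases made up a median of 94.0% of the wider peak of a pair, against 80.9%.

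Replicate 2 had the higher fold enrichment in 15 of the 21 pairs (71.4%), with a median ratio of 1.19. Over all exonic pairs it was higher in 58.6%, with a median ratio of 1.06. As plain reads over background it was higher in 16 of the 21 pairs (76.2%), against 64.3% of all exonic pairs. The 5 first-exon pairs were all higher in replicate 2, with ratios from 1.21 to 2.23 and a median of 1.36. Among 1769 first-exon pairs of all genes, 75.2% were higher in replicate 2, with a median ratio of 1.23. As plain reads over background, the 5 pairs had ratios from 1.12 to 1.42 and a median of 1.26. Over all genes, 72.0% of first-exon pairs were higher on that scale, with a median of 1.16. The 7 pairs over a stop codon had ratios from 0.851 to 1.27 with a median of 1.11, and 5 of them were higher in replicate 2. Over 1771 such pairs of all genes the share was 58.8% and the median 1.06. On the plain scale the medians of the pairs over a stop codon were 1.21 for the 7 and 1.10 for all genes. The glycolytic pairs therefore differed between replicates in the same direction as pairs of other genes at these positions, and the cause was not tested.

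**Figure D4:**
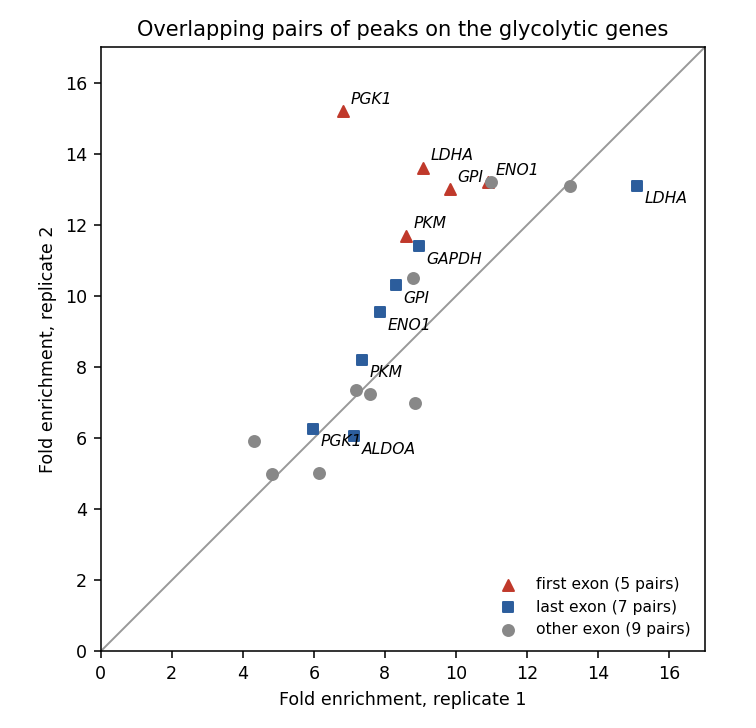
Fold enrichment in replicate 2 against replicate 1 for the 21 overlapping pairs, marked as first-exon, last-exon or other pairs, with the line of equal values. All 5 first-exon pairs lie above the line, PGK1 farthest from it, and 5 of the 7 last-exon pairs do.

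The share of the transcript under pairs differed widely among the 7 genes. The bases under peaks of both lists made up a median of 24.4% of the canonical transcript in the 7 genes, against 12.6% over the 5606 genes. They were 61.0% in PKM, 45.4% in GAPDH, 26.9% in LDHA and 24.4% in GPI. They were 21.8% in ENO1, 17.9% in ALDOA and 6.34% in PGK1, the only one of the 7 below the median of the 5606 genes. The transcripts of the 7 genes were also shorter, with a median of 2241 nt against 3595 nt. The number of pairs per kb of transcript had a median of 0.970 against 0.498, and was highest in PKM at 3.47.

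Coding sequence held 10 of the 28 summits of replicate 1 and 7 of the 27 of replicate 2, and introns held 7 of each. A summit was outside every annotated exon of its gene for 8 peaks in each replicate. Of these, 6 in replicate 1 and 8 in replicate 2 lay within 150 nt upstream of an exon, at 12 to 124 nt and at 12 to 127 nt. Examples are the pairs at exons 2, 3 and 4 of PKM and at exon 1 of PGK1. When summits were moved downstream on the gene strand by 146 nt (replicate 1) or 147 nt (replicate 2), the distance from the start to the middle of the narrowest peak, the coding share of replicate 1 was 42.9% in place of 35.7%, and that of replicate 2 was 37.0% in place of 25.9%. The intron share became 17.9% and 11.1%. The class of a summit therefore depends on its placement, while the exons that a peak covers do not.

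The sequence motifs were counted in windows of 101 nt around the summits, on the gene strand. The windows are genomic and not spliced, so some hold intron bases. One is at PKM exon 5 in replicate 1, whose summit is in an intron of the canonical transcript. GGAC was present in 4 of 28 windows in replicate 1 (14.3%, Wilson 95% interval 5.70–31.5%) and 6 of 27 in replicate 2 (22.2%, 10.6–40.8%). Over all exonic peaks it was present in 29.4% and 32.5%, within both intervals. TGGAC, the longer form, which contains GGAC, was found in 2 windows of each replicate (7.14% and 7.41%, against 10.1% in each). Windows with it were at exon 5 of PKM and exon 8 of LDHA in replicate 1, and at exon 11 of PKM and exon 1 of PFKP in replicate 2. The CAT elements were in 67.9% and 51.9% of windows, against 62.3% and 53.3%, and ACACA in 7.14% and 11.1%, against 10.1% and 8.15%. For comparison, AAAAA was in 3.57% and 14.8% of windows against 11.4% and 8.12%, and TTTTT in 14.3% and 14.8% against 20.0% and 13.4%. For each of these motifs, the share over all exonic peaks lay within the interval of the glycolytic windows in both replicates. Such intervals cover counting error only and treat peaks of 1 gene as independent, so this is a description and no test.

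A list of 44 other genes of the pathway and its branches was examined in the same way. A peak was present on 21 of them in replicate 1 and 22 in replicate 2, where 37.3% and 39.0% of all protein-coding genes had one. A pair was found on 15 (34.1%), against 28.0% of all protein-coding genes, and 17 had no peak. The enzymes or isozymes of other glycolytic steps had a pair in 5 of 12 genes. TPI1, the triosephosphate isomerase, had 1 peak in replicate 1 only. PGAM1, the phosphoglycerate mutase, had 1 pair over the stop codon, with fold enrichments of 8.85 and 8.95. A pair was found on 2 of 4 transporters of glucose and lactate, 3 of 7 genes of pyruvate entry and oxidation, and 3 of 6 of gluconeogenesis. It was found on 1 of 6 regulators and on 1 of 9 isozymes restricted to other tissues, ENO3, whose pair also overlapped PFN1. Of the 15 genes with a pair, 5 had one that reached the stop codon, where 32.1% of all genes with a pair did.

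The strongest of these pairs were on genes of transport and pyruvate entry. MPC2, a subunit of the mitochondrial pyruvate carrier, had fold enrichments of 14.5 and 16.8, in peaks that also overlapped DCAF6. SLC2A1, the glucose transporter GLUT1, had 13.7 and 22.5, in peaks that also overlapped lncRNA exons, among them those of SLC2A1-DT. SLC16A1, the lactate transporter MCT1, had 12.4 and 13.3. The next were TIGAR, which lowers fructose 2,6-bisphosphate (10.9 and 12.3), and MPC1, the partner of MPC2 (10.3 and 11.2). ADPGK, an ADP-dependent glucokinase, had 9.29 and 10.6, ENO3 had 9.29 and 14.1, and LDHB, the partner of LDHA in lactate dehydrogenase, had 12.4 and 9.72. The TIGAR and LDHB pairs also overlapped exons of other annotated genes. The pairs of these 8 genes lay in the range of the 21 pairs described above, except for the replicate 2 values of MPC2 and SLC2A1, which were higher. All 6 epithelial marker genes had a pair, where 28.0% of all protein-coding genes did. None of 8 marker genes of blood, stromal and endothelial cells had a pair, with 1 peak on COL1A1 in replicate 2. A peak reports binding and not expression, so these counts do not establish the identity of the cells.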

How the data were processed

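IGF2BP3 LACE-seq peak lists of 2 OE-19 replicates were used as deposited. Per the submitters' processing notes, fastp, HISAT2 and MACS2 were used with hg38; the study's methods name Bowtie and Piranha instead, and versions are not given in the sources used here. The authors called peaks in each replicate separately, and the deposited files give positions, a fold enrichment (ratio), a p-value and a q-value as −log10, and no strand. A score that the authors derived from the q-value was not used. Summit pileup and background in reads were recovered from the deposited fold and p-value under a Poisson model (tolerance 0.001 in −log10 p). This succeeded for all 21142 and 20799 peaks. The recovery was tested on data simulated with the same formula. The simulated backgrounds did not reach as low or as high as those of the exonic peaks. These ran from 0.342 to 167 reads in replicate 1 and from 0.300 to 149 in replicate 2. The 5th to 95th percentiles of the pileup were 8 to 75 and 8 to 77 reads. Library totals are unknown.

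Peaks were assigned by 1 bp of overlap with exons of GENCODE 44 genes, regardless of strand. Bases were classed over all transcripts in the order CDS, 3′ UTR and 5′ UTR, then non-coding exon, intron and outside; exon numbers, coverage and codons are those of the Ensembl canonical transcript. Named were all 10 genes, TPI1 and PGAM1, and the 8 other pathway genes with the highest lower within-list percentile of fold enrichment in a pair. The genes, lists and motifs were chosen with earlier results of these data known. With 1 group, no comparison between groups was tested. Alternatives changed the overlap rule, gene models, peak threshold, repeated sequence, windows and replicates. Python 3.11.15, numpy 2.4.6, pandas 2.3.3, scipy 1.17.1 and matplotlib 3.10.9 were used.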

Additional observations from a re-analysis of the deposited data

How the results depend on the processing

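Of 80 alternative values for 14 results, 27 could not move: 18 left out 1 of 2 replicates, which shifts a mean by less than their spread, and 9 required a −log10 q of 5, which no glycolytic peak failed. Of the other 53, 35 moved by less than the spread between replicates (for counts, by less than 1.5 times) and 18 moved by more. The median fold enrichment (8.07, mean of replicates) was 11.0 as plain reads over background. The share of glycolytic peaks overlapping the other replicate (76.4%, mean of replicates) was 82.1% with summits in exons, 71.7% with single-copy summits, 73.9% without peaks on other genes' exons, 72.8% with 50% overlap of both peaks and 29.1% with summits within 50 bp. Genes with a pair over the stop codon (7) fell to 4 without peaks on other genes' exons and to 2 with summits within 50 bp. The CDS share (30.8%) was 19.9% at peak midpoints and 39.9% with moved summits. The 3′ UTR share (14.6%) was 23.7% with moved summits. It includes the GPI summit at exon 1 in replicate 2 and the LDHA summit at exon 4 in replicate 1. Both are 3′ UTR only in transcripts other than the canonical one. The intron share (25.5%) was 29.1% at midpoints, 34.5% on canonical transcripts and 14.5% with moved summits. With windows of 100 nt to each side, TGGAC went from 7.28% to 23.7%, GGAC from 18.3% to 43.8% and the CAT elements from 59.9% to 76.3%; TGGAC was 5.49% around midpoints. The cause was not tested, except that wider windows hold more sites. Moving summits, plain reads over background and the alternatives for the stop codon were chosen after seeing the data. Leaving out a replicate gave no value for results that need both lists. No paired analysis was possible because there is 1 group. The effect of depth could not be measured, since library totals are unknown.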

Other observations

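GENCODE 44 lists 85 pseudogenes named after the 10 genes, and 27 of them had a peak in at least 1 replicate. The share of all annotated pseudogenes with a peak was not measured, so whether such counts are high or low is unknown. GAPDH accounted for 65 of the 85, with a peak on 17 in replicate 1 and 16 in replicate 2. Of 6 LDHA pseudogenes, 3 had a peak in replicate 1 and 2 in replicate 2. ENO1 has 4 annotated pseudogenes and HK2 has 1, and none of these had a peak. ALDOAP2 had fold enrichments of 10.2 and 14.3, above the pair on ALDOA itself. GAPDHP63 had 16.4 and 14.2, above the 8.96 and 11.4 of the GAPDH pair, and both pseudogenes were named after their values were seen. How reads that match several copies were shared out is not known for these lists, and transcription of these loci was not tested.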
